A study of Mus musculus with 9 samples.

Results

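The genes described lie in a 10.2 Mb segment of mouse chromosome 12, from 22.9 to 33.1 Mb on the GRCm38 build, measured by RNA-seq of sorted cortical nuclei. The Ensembl 102 annotation places 182 genes there, of which 68 had no count in any of the 9 libraries and 61 had a count sum of 1 to 99. A count sum of at least 100 over all libraries, with ribosomal protein symbols left out (Rps7 here), gave 52 members of the 55401 genes in the files. Of these, 39 are protein coding and 13 are not, and 8 of the 13 are long intergenic RNAs. The genes just under the minimum were Gm24613 with a sum of 64, Gm47872 with 83 and Colec11 with 88, and the members just above it were C630031E19Rik with 160, Allc with 173 and Gm20208 with 181. The members were thus chosen by their position and by their count sum, and the bounds of the segment were set with the group differences of these libraries known, so the differences below describe it and are no evidence about the place itself.

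The study asked how a peptide named Cdk5i, given to mice that carry the P301S Tau transgene, affects neuronal RNA. Cdk5 is a kinase of neurons, and P301S is a mutation of the microtubule-associated protein tau that is known from inherited frontotemporal dementia. Neuronal nuclei were sorted from cortex by the NeuN antibody, and libraries were made with a stranded total RNA kit and read as pairs of 40 bases. The groups were 3 libraries from P301S mice given Cdk5i, 3 libraries from P301S mice given a scrambled peptide and 3 libraries from wild-type mice that were untreated. Both peptides were given at 20 mg/kg into the peritoneum every other day, and all mice were 7 to 9 months old. The wild-type mice received no peptide, so genotype and injection cannot be told apart in any comparison with them. The labels used here name neither the promoter of the transgene nor the mouse line, and do not state that the libraries of a group came from separate animals, so the p-values measure the spread between these libraries.

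Totals ran from 21584712 to 26715938 counts per library, and the members took 0.293% to 0.330% of them. Marker genes of excitatory neurons summed to 1262, 1262 and 1201 CPM (counts scaled to a common library total of 1000000) in Cdk5i, scrambled and wild-type libraries, against 3.57, 3.53 and 3.57 CPM for vascular markers. Glial markers were present: those of astrocytes summed to 449, 443 and 513 CPM, those of microglia to 85.4, 75.4 and 95.3 CPM and those of oligodendrocyte precursors to 18.8, 17.9 and 21.3 CPM in the same groups. The microglia sum ran from 52.3 to 159 CPM among wild-type libraries alone. Sums did not always move as most of their genes did. For scrambled over wild type, 2 of 8 excitatory genes were above 0 (median log2 fold change -0.03). So were 3 of 4 tested microglia genes (0.15), 2 of 3 precursor genes (0.48) and 2 of 6 astrocyte genes (-0.26). Oligodendrocyte markers summed to 78.1 to 123 CPM in Cdk5i libraries, 83.53 to 110 CPM in scrambled libraries and 73.9 to 83.54 CPM in wild-type libraries. For scrambled over wild type, 6 of 6 tested oligodendrocyte genes had a log2 fold change above 0 (median 0.31), of which 2 had an unadjusted p under 0.05 and 0 passed by edgeR or DESeq2. Inhibitory neuron markers summed to 1069 to 1217 CPM in Cdk5i libraries, 904 to 998 CPM in scrambled libraries and 1028 to 1189 CPM in wild-type libraries, so the scrambled libraries stood below both other groups. None of those 8 genes passed edgeR's test in a comparison of the groups, and DESeq2 called 1 for Cdk5i over scrambled. At an unadjusted p under 0.05 there were 1, 1 and 0 in scrambled over wild type, Cdk5i over scrambled and Cdk5i over wild type. Over all tested genes the shares were 10.1%, 5.33% and 11%, in the same order. The median log2 fold change of the 8 for scrambled over wild type was 0.02, with 5 of 8 above 0. The part of glial and inhibitory markers in the differences below was not tested. In bulk RNA, fewer cells of a type and less RNA per cell cannot be told apart.

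A chromosome segment is a stretch of neighbouring genes that need not share a function, and neighbours can share promoters, enhancers and the state of their chromatin. This one holds Myt1l, a zinc finger factor that keeps non-neuronal genes silent in neurons, and Kidins220, a membrane scaffold of neurotrophin receptors. It also holds genes of the basement membrane (Lamb1, Pxdn), of vesicle and Golgi traffic (Eipr1, Trappc12, Cog5) and several long non-coding RNAs.

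In the scrambled libraries, 3 members fell relative to wild type, and at each of them the Cdk5i libraries overlapped the wild type. They are the long intergenic RNA Gm9866, the long intergenic RNA 2410018L13Rik and Dcdc2c, which encodes a protein with doublecortin domains, a fold that binds microtubules. Between scrambled and wild type these 3 of 52 were lower and 0 were higher at an adjusted p under 0.05 by edgeR's quasi-likelihood test, where 0.0436% of all 16046 tested genes were called lower and 0.0374% higher. No member was higher at an unadjusted p under 0.05 or by DESeq2 either. Between Cdk5i and scrambled libraries, Gm9866 was called higher, where the share over all tested genes was 0.0125%. For the reason given above, nothing is read from these shares.

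Gm9866 (ENSMUSG00000094002, chr12:27050950-27160633, minus strand) was the most even of these changes. It measured 62.2, 61.7 and 66.4 CPM in the Cdk5i libraries, 34.8, 31.7 and 40.3 CPM in the scrambled libraries and 59.8, 63.9 and 63.5 CPM in the wild-type libraries. Every scrambled library lay below every other library, and the Cdk5i and wild-type libraries overlapped. The log2 fold change was -0.81 ± 0.08 for scrambled over wild type (SE; edgeR adjusted p = 0.00142) and 0.83 ± 0.08 for Cdk5i over scrambled (edgeR adjusted p = 9.83e-04). For Cdk5i over wild type it was 0.02 ± 0.08, with a 95% interval from -0.15 to 0.20.

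2410018L13Rik (chr12:22953997-23010284, minus strand) is the member nearest to the start of the segment and is read at low depth. It had 24, 40 and 47 counts in the Cdk5i libraries, 8, 7 and 12 counts in the scrambled libraries and 31, 35 and 33 counts in the wild-type libraries. The scrambled libraries did not overlap either other group. Its log2 fold change was -2.06 ± 0.31 for scrambled over wild type (edgeR adjusted p = 0.0336). For Cdk5i over scrambled it was 2.00 ± 0.31, which did not pass (edgeR adjusted p = 0.0843). Its span is shared on the same strand with Gm49686 and Gm48046, and how read pairs in the shared part were counted was not checked. The same holds for all 7 members that overlap another gene on the same strand, Eipr1, Cog5 and Adi1 among them.

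Dcdc2c (chr12:28437795-28552399, minus strand) measured 3.84, 3.81 and 5.16 CPM in the Cdk5i libraries, 1.43, 1.58 and 2.22 CPM in the scrambled libraries and 3.89, 5.43 and 3.95 CPM in the wild-type libraries. Again all scrambled values lay below all others. The log2 fold change was -1.34 ± 0.22 for scrambled over wild type (edgeR adjusted p = 0.0492), and 1.29 ± 0.22 for Cdk5i over scrambled, which did not pass (edgeR adjusted p = 0.114). DESeq2 called Dcdc2c in Cdk5i over scrambled (adjusted p = 6.93e-04, within 7.99e-07 to 0.550 over 16 settings, the lowest by edgeR with no filter on low counts). Of the other doublecortin family genes, 7 of 7 were tested: Dcx, Dclk1, Dclk2, Dclk3, Dcdc2a, Dcdc2b and Rp1. None passed in any comparison by edgeR or DESeq2. At an unadjusted p under 0.05 there were 1, 0 and 1 in scrambled over wild type, Cdk5i over scrambled and Cdk5i over wild type. Over all tested genes the shares were 10.1%, 5.33% and 11%, in the same order. With 7 genes, the absence of calls does not show an unchanged family.

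Which members passed between scrambled and wild type depended on single libraries. The count was 1, Gm9866, without scrambled library 1 or 2 or without any 1 of the 3 wild-type libraries, and it was 6 without scrambled library 3. Over all tested genes the calls numbered 13 with every library, 17 without scrambled library 3, 10 and 2 without scrambled library 1 or 2, and 8, 3 and 3 without wild-type library 1, 2 or 3. DESeq2 called 6 members in this comparison, of 75 genes in all (2410018L13Rik, Gm9866, Dcdc2c, Gm31508, Pxdn and Cdhr3), and 8 for Cdk5i over scrambled, of 27 in all (the same 6 with Eipr1 and Lamb1). Dcdc2c also lost its call without Cdk5i library 1 (edgeR adjusted p = 0.0621) or library 2 (0.0553), within a range of 2.60e-07 to 0.321 over all 16 settings tried.

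The promoters of these 3 genes and of Cdhr3, at the far end of the segment, are shown. These members had the changes that passed by edgeR with every library or the largest difference at that end. RefSeq gives each on GRCm38.p6 as 250 bases before to 50 bases after the start, 5′ to 3′ on the gene's strand, and capitals mark any match on either strand to TATAAA (the TATA box), CCAAT (bound by NF-Y), GGGCGG (bound by Sp1-like factors), CACGTG (an E-box) or TGACGTCA (the cAMP response element). The motifs do not overlap in the windows shown.
Gm9866 (chr12:27160467-27160766, minus strand): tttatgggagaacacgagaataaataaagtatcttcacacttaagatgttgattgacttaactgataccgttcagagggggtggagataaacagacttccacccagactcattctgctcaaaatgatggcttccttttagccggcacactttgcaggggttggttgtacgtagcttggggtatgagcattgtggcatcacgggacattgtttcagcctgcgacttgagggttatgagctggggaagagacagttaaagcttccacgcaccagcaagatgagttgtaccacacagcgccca
2410018L13Rik (chr12:23010194-23010493, minus strand): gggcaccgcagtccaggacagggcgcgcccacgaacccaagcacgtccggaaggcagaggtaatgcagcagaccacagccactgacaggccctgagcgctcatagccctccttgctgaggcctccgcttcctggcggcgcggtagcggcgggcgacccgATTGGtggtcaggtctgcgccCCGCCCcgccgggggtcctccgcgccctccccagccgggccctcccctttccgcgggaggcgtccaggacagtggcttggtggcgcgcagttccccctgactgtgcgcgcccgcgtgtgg
Dcdc2c (chr12:28552350-28552649, minus strand): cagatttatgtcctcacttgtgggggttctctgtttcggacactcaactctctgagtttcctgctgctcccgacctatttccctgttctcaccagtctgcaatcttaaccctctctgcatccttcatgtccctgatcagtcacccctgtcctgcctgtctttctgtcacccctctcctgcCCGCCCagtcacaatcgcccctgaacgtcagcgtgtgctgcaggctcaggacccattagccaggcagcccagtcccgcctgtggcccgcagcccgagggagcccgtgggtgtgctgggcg
Cdhr3 (chr12:33092826-33093125, minus strand): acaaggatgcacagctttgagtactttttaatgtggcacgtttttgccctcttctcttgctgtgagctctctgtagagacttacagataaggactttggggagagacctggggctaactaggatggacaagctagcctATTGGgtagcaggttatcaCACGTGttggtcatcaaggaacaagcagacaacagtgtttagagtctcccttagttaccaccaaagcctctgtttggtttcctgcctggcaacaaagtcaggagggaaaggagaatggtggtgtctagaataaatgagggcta

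The 4 promoters do not look alike. That of 2410018L13Rik holds 31 CG dinucleotides at 72.7% GC, with a match to CCAAT and one to GGGCGG. The Dcdc2c promoter holds 11 CG dinucleotides and one GGGCGG match, that of Gm9866 holds 8 and no match, and that of Cdhr3 holds 2, with a CCAAT and a CACGTG match. RefSeq had an entry for 43 of the 52 members. Their median was 59.7% GC and 19 CG dinucleotides, against 52.7% and 7 over all 32817 promoters in the table. The 2 sets are unlike. The full set was not limited by counts and can hold several starts of a gene. Each member passed the count minimum and entered with the start nearest to its Ensembl start. That start could be far away, by 51961 bases at Gm36723, 11260 at Gm36287, 3789 at Gm20208, 2762 at Gm31333 and 1048 at Id2. What this does to the medians and to the motif shares was not tested. GGGCGG was found in 27 of 43, against 35.6% of all promoters, and CCAAT in 19, against 37.4%. TATAAA was found in 3 (13.6% of all promoters), CACGTG in 4 (7.15%) and TGACGTCA in 0 (1.79%).

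In 5 pairs, members start head to head, with distances taken between RefSeq starts, which can differ from the Ensembl starts. The start of Acp1, a small phosphotyrosine phosphatase, lies 57 bases from that of Sh3yl1, which binds phosphoinositides, and their promoter windows share 156 bases. The Acp1 window is shown because this pair read differently between groups.
Acp1 (chr12:30911563-30911862, minus strand): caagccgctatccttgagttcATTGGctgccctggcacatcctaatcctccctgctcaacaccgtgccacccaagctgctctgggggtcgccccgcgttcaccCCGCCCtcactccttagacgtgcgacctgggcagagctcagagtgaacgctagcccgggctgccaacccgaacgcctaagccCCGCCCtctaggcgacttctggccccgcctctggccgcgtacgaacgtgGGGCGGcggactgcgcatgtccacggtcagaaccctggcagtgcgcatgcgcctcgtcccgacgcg
Acp1 measured 8.75, 8.46 and 10.01 CPM in Cdk5i libraries, 5.98, 6.36 and 7.02 CPM in scrambled libraries and 8.39, 8.94 and 10.2 CPM in wild-type libraries. Sh3yl1 measured 7.81, 7.51 and 9.39 CPM in Cdk5i libraries, 11.7, 9.66 and 8.09 CPM in scrambled libraries and 9.91, 9.03 and 9.49 CPM in wild-type libraries. For Acp1 the scrambled libraries lay below both other groups, whereas the Sh3yl1 groups overlapped, and neither gene passed (edgeR adjusted p = 0.235 and 0.932 for scrambled over wild type). The difference between the 2 genes was not tested.

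A second close pair is Dus4l, a tRNA dihydrouridine synthase, with Cog5, a subunit of a Golgi tether, whose starts lie 43 bases apart. Dus4l measured 5.27, 6.06 and 5.31 CPM in Cdk5i libraries, 4.24, 4.26 and 4.24 CPM in scrambled libraries and 6.59, 6.13 and 6.40 CPM in wild-type libraries, with no overlap between any 2 groups. Cog5 measured 138, 136 and 145 CPM in Cdk5i libraries, 131, 127 and 134 CPM in scrambled libraries and 148, 150.2 and 137 CPM in wild-type libraries. For Cog5 the scrambled libraries were again below the rest, by a smaller step (log2 fold change -0.15 ± 0.06 for scrambled over wild type, against -0.59 ± 0.12 for Dus4l). Neither passed by edgeR (adjusted p = 0.419 for Cog5 and 0.182 for Dus4l). The other 3 pairs, 2900060N12Rik with Mboat2, 4933406C10Rik with Sypl, and Trappc12 with Eipr1, start 282, 156 and 1419 bases apart by RefSeq. In the Ensembl annotation the spans of 2900060N12Rik and Mboat2 overlap.

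**Figure D1:**
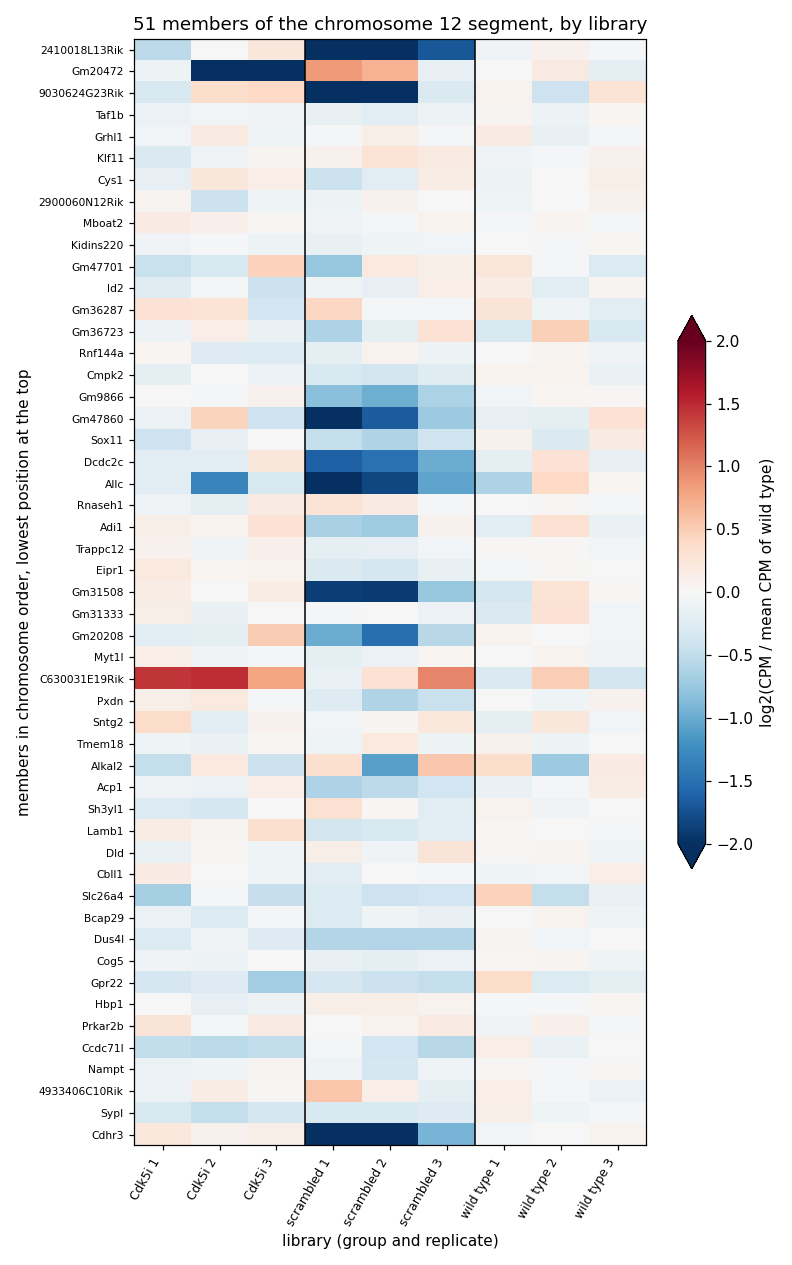
Log2 ratio of CPM to the wild-type mean for 51 of the 52 members, 1 line of cells a gene in chromosome order, with the Cdk5i libraries left, the scrambled libraries next and the wild-type libraries right; colours saturate at 2 on the log2 scale in either direction. Scrambled libraries 1 and 2 are low at 7 and 9 members that fall under 0.5 of the wild-type mean, and scrambled library 3 at 2. The shares over all tested genes were 1.5%, 1.96% and 2.95% in libraries 1, 2 and 3.

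Across all 52 members the median log2 fold change for scrambled over wild type was -0.15, against 0.01 over all tested genes, with 14 members above 0 and 38 below. The groups did not overlap at 23 members, of which 22 were lower in scrambled libraries and 1 was higher (Hbp1), while over all tested genes 8.03% were lower and 8.26% higher without overlap. An absolute log2 fold change over 1 was reached by 7 members, all of them lower, against 1.03% of all tested genes. For Cdk5i over scrambled the median was 0.10, against -0.01 over all tested genes. There 14 members were higher and 3 lower (Klf11, Hbp1 and Sypl) without overlap, while over all tested genes 4.95% were higher and 5.38% lower. Both comparisons use the same scrambled libraries, so a low scrambled value enters each of them.

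**Figure D2:**
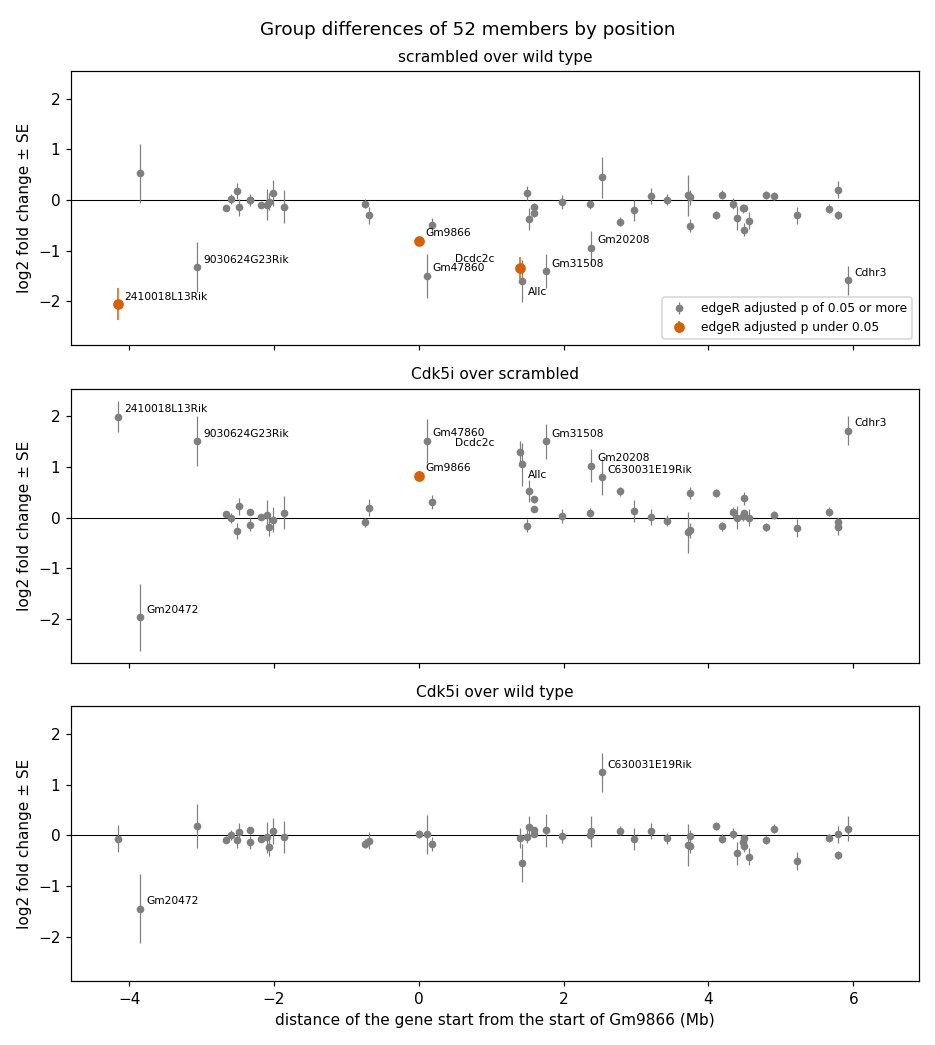
Log2 fold change ± SE (vertical axis) of each member by the distance of its start from that of Gm9866 in Mb (horizontal axis), for 3 comparisons, with members at an edgeR adjusted p under 0.05 in orange. Large differences stand among genes near 0, for example at 2410018L13Rik, Gm9866, Dcdc2c, Gm31508 and Cdhr3 in the upper 2 panels, and are mostly gone in the bottom panel.

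By position, the large differences were not even along the segment. Cut into 5 windows of equal length, the third, from 26.98 to 29.02 Mb, had a median log2 fold change of -0.65 for scrambled over wild type over 10 members, and 0.68 for Cdk5i over scrambled. In the other windows the medians for scrambled over wild type were -0.01, -0.09, -0.04 and -0.17, in chromosome order. Of the 10 members of the third window, 8 were lower in scrambled libraries without overlap, while 8.03% of all tested genes were. The exceptions were Rnaseh1, which encodes an RNase that cleaves RNA in RNA-DNA hybrids, and Adi1, an enzyme of methionine salvage.

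The third window runs from Gm9866 to Gm31508. Next to Gm9866 lies the pseudogene transcript Gm47860, with 23, 40 and 22 counts in Cdk5i libraries, 4, 8 and 17 counts in scrambled libraries and 21, 21 and 30 counts in wild-type libraries. Sox11, a transcription factor of developing neurons, measured 8.71, 10.4 and 11.7 CPM in Cdk5i libraries, 8.37, 7.64 and 8.77 CPM in scrambled libraries and 12.4, 9.46 and 12.99 CPM in wild-type libraries. In both, scrambled libraries were below wild type without overlap, but only Gm47860 was also apart from the Cdk5i libraries. Neither passed in scrambled over wild type (edgeR adjusted p = 0.311 for Gm47860 and 0.307 for Sox11).

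Allc, which encodes allantoicase, an enzyme of purine breakdown, lies next to Dcdc2c on the same strand. It had 24, 13 and 26 counts in Cdk5i libraries, 7, 8 and 15 counts in scrambled libraries and 17, 35 and 28 counts in wild-type libraries. The scrambled values lay below wild type but overlapped the Cdk5i values, and the log2 fold change of -1.60 ± 0.42 for scrambled over wild type did not pass (edgeR adjusted p = 0.271).

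Eipr1, which binds the EARP and GARP tethers of endosome and Golgi traffic, measured 111, 99.4 and 102 CPM in Cdk5i libraries, 79.3, 76.0 and 87.1 CPM in scrambled libraries and 95.5, 98.3 and 97.1 CPM in wild-type libraries. The 3 groups were apart, with Cdk5i highest and scrambled lowest. Its difference was -0.26 ± 0.07 for scrambled over wild type and 0.37 ± 0.07 for Cdk5i over scrambled on the log2 scale, and neither passed (edgeR adjusted p = 0.263 and 0.131). Its neighbour Trappc12, a subunit of the TRAPP vesicle tether, averaged 59.7 ± 3.84 CPM in Cdk5i libraries, 53.0 ± 2.65 CPM in scrambled libraries and 58.2 ± 1.80 CPM in wild-type libraries (SD, n = 3 each).

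Gm31508, a long intergenic RNA at the end of the window, had a step of over 1 log2 unit with a wide spread. It measured 81.2, 73.6 and 81.0 CPM in Cdk5i libraries, 19.9, 19.4 and 43.5 CPM in scrambled libraries and 57.2, 88.6 and 74.2 CPM in wild-type libraries. Scrambled libraries 1 and 2 were close to each other and scrambled library 3 lay between them and the wild type. Gm31508 had a log2 fold change of -1.41 ± 0.34 for scrambled over wild type and of 1.51 ± 0.34 for Cdk5i over scrambled, neither of which passed (edgeR adjusted p = 0.314 and 0.667). Without scrambled library 3 both passed, with log2 fold changes of -1.90 (edgeR adjusted p = 0.00919) and 2.00 (edgeR adjusted p = 0.00380), and over 16 settings the adjusted p ran from 0.00919 to 0.701 and from 0.00380 to 1.00. As library 3 lay nearest to the wild type, leaving it out widens the difference, so nothing is read from these passes. Each of the 2 comparisons passed under 2 of 16 settings.

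**Figure D3:**
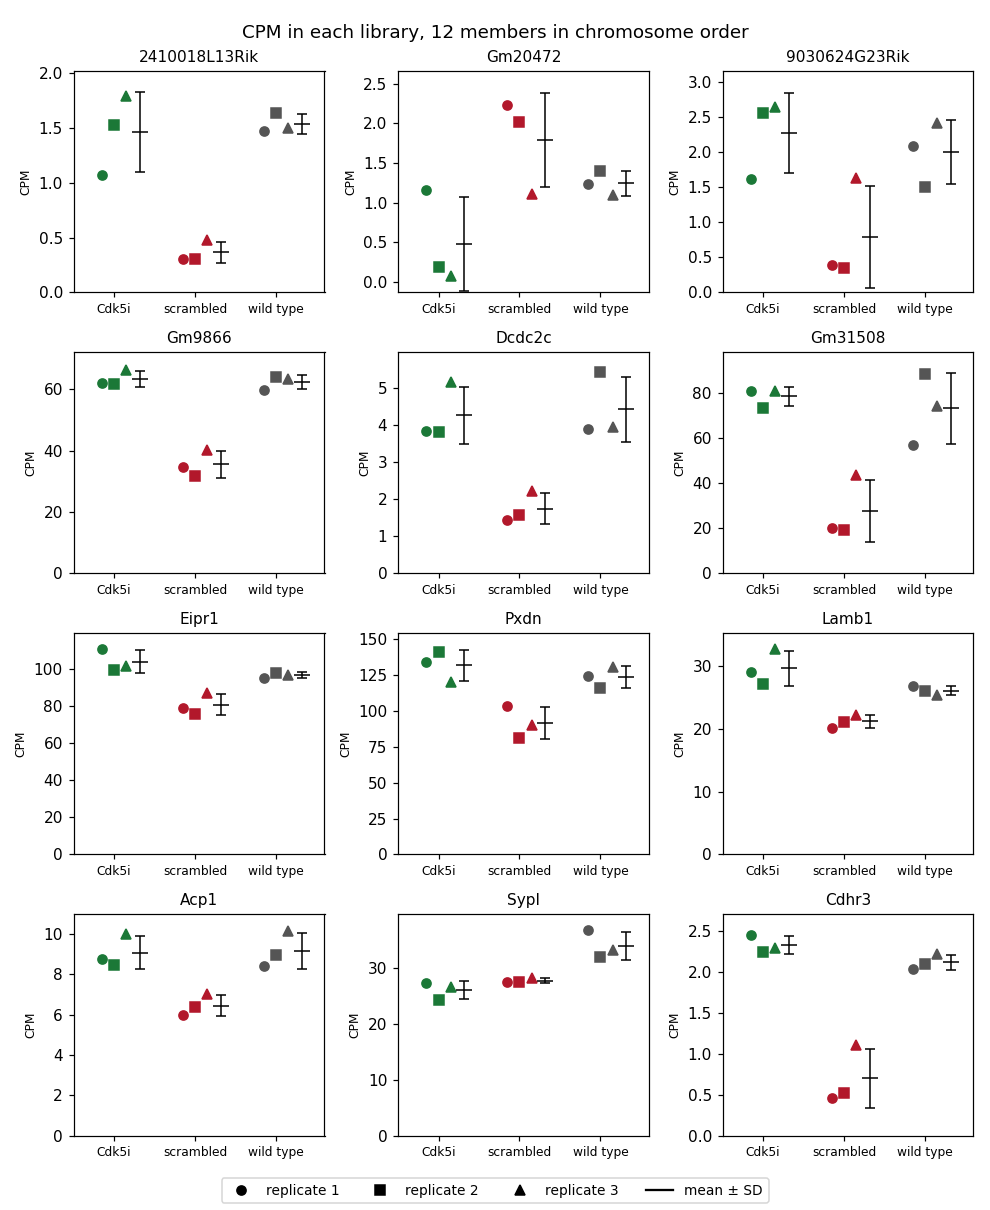
CPM of 12 members in each of the 9 libraries, groups from left to right Cdk5i, scrambled and wild type, with the mean ± SD of 3 libraries beside the points and the replicate number as the marker shape. Scrambled library 3 (triangle) lies nearest to the wild-type level at Gm31508, Dcdc2c, 9030624G23Rik and Cdhr3, and Sypl is high in the wild type.

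At the start of the segment, the first window held a member that ran the other way among the P301S libraries. Gm20472, an unprocessed pseudogene, had 26, 5 and 2 counts in Cdk5i libraries, 58, 46 and 28 counts in scrambled libraries and 26, 30 and 24 counts in wild-type libraries. Cdk5i library 1 was near the wild type and Cdk5i libraries 2 and 3 were far below it. No comparison passed by edgeR (adjusted p = 0.841 for Cdk5i over scrambled, log2 fold change -1.97 ± 0.66), but without Cdk5i library 1 it was -3.69 and passed (edgeR adjusted p = 0.0215, within 1.49e-04 to 1.00 over 15 settings). Gm20472 passed under 2 of 15 settings in Cdk5i over scrambled, and the lowest value came with no filter on low counts. The protein-coding gene 9030624G23Rik measured 1.61, 2.55 and 2.64 CPM in Cdk5i libraries, 0.386, 0.351 and 1.63 CPM in scrambled libraries and 2.09, 1.498 and 2.41 CPM in wild-type libraries. Its scrambled values rest on 10, 8 and 41 counts. Here too scrambled library 3 lay with the other groups, and no comparison passed by edgeR (adjusted p = 0.419 for scrambled over wild type). Without scrambled library 3 it passed (edgeR adjusted p = 0.02997 for scrambled over wild type, within 0.00193 to 0.842 over 16 settings, and 0.0148 for Cdk5i over scrambled, within 1.17e-04 to 1.00). Leaving that library out widens the difference. Each of these comparisons passed under 2 of 16 settings, and the lowest values came with no filter on low counts. These 2 genes were named after their values were seen.

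The remaining members of the first window are better read and differed by less. Taf1b, a subunit of the RNA polymerase I selectivity factor, averaged 75.0 ± 1.66 CPM in Cdk5i libraries, 71.2 ± 2.82 CPM in scrambled libraries and 79.4 ± 4.39 CPM in wild-type libraries. Grhl1, a grainyhead-like factor, and Mboat2, an acyltransferase of phospholipids, had log2 fold changes of 0.02 and -0.01 for scrambled over wild type. Klf11, a Krüppel-like factor, averaged 2.80 ± 0.323 CPM in Cdk5i libraries, 3.38 ± 0.219 CPM in scrambled libraries and 2.99 ± 0.170 CPM in wild-type libraries. Cdk5i libraries were below scrambled libraries for Klf11 without overlap, and it did not pass (edgeR adjusted p = 0.945). Cys1, which encodes a protein of the primary cilium, overlapped in all 3 comparisons, as did Grhl1, Mboat2 and the RNA 2900060N12Rik.

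The second window held Kidins220, with 343, 350.2 and 336 CPM in Cdk5i libraries, 326, 341 and 348 CPM in scrambled libraries and 361, 354 and 370.1 CPM in wild-type libraries. Both P301S groups were below the wild type without overlap, by a log2 fold change of -0.08 ± 0.06 in Cdk5i and -0.10 ± 0.06 in scrambled libraries, and neither passed (edgeR adjusted p = 0.675 and 0.622). Cmpk2, a mitochondrial nucleotide kinase known as an interferon-induced gene, measured 2.59, 2.93 and 2.71 CPM in Cdk5i libraries, 2.39, 2.28 and 2.499 CPM in scrambled libraries and 3.08, 3.09 and 2.68 CPM in wild-type libraries. The scrambled libraries were below both other groups, by -0.30 ± 0.16 on the log2 scale for scrambled over wild type, and did not pass (edgeR adjusted p = 0.573). Id2, an inhibitor of helix-loop-helix factors, and Rnf144a, a ubiquitin ligase, overlapped in all comparisons, as did the long intergenic RNAs Gm47701, Gm36287 and Gm36723.

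The fourth window is dominated by Myt1l, which took 44.7% to 48.6% of the counts of all members. Myt1l measured 1636, 1423 and 1455 CPM in Cdk5i libraries, 1303, 1376 and 1534 CPM in scrambled libraries and 1495, 1566 and 1416 CPM in wild-type libraries. The groups overlapped, and the log2 fold change for scrambled over wild type was -0.09 ± 0.09 (edgeR adjusted p = 0.771). On the opposite strand, Gm20208 overlaps the start of Myt1l and C630031E19Rik lies within it. Gm20208 had 19, 23 and 37 counts in Cdk5i libraries, 13, 8 and 17 counts in scrambled libraries and 22, 21 and 21 counts in wild-type libraries. C630031E19Rik had 28, 34 and 21 counts in Cdk5i libraries, 11, 13 and 23 counts in scrambled libraries and 8, 14 and 8 counts in wild-type libraries. Gm20208 was lowest in scrambled libraries and C630031E19Rik had its highest mean in Cdk5i libraries, with a log2 fold change of 1.25 ± 0.38 for Cdk5i over wild type that did not pass (edgeR adjusted p = 0.274). Counting was by strand, per the file headers, and how many Myt1l reads reach the opposite strand was not tested.

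Pxdn, which encodes peroxidasin, a peroxidase that cross-links collagen of the basement membrane, measured 134, 141 and 119.7 CPM in Cdk5i libraries, 103, 81.2 and 90.2 CPM in scrambled libraries and 124, 116 and 131 CPM in wild-type libraries. All scrambled values were below all others. The log2 fold change was -0.43 ± 0.09 for scrambled over wild type (edgeR adjusted p = 0.182) and 0.52 ± 0.09 for Cdk5i over scrambled (edgeR adjusted p = 0.116). Without scrambled library 1, Pxdn passed in Cdk5i over scrambled (edgeR adjusted p = 0.0367, within 4.16e-09 to 0.550 over 16 settings, the lowest with no filter on low counts). Library 1 was the highest of the scrambled libraries here, and Pxdn passed under 3 of 16 settings in that comparison. The scaffold gene Sntg2, the nuclear membrane gene Tmem18, the kinase ligand gene Alkal2 and the long intergenic RNA Gm31333 overlapped in all comparisons.

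In the fifth window the member nearest to the far bound, Cdhr3 (chr12:33033796-33092875, minus strand), stood out from its neighbours. Cdhr3 encodes a cadherin-related membrane protein that in human airways is the receptor of rhinovirus C. It measured 2.46, 2.25 and 2.29 CPM in Cdk5i libraries, 0.463, 0.527 and 1.11 CPM in scrambled libraries and 2.04, 2.11 and 2.22 CPM in wild-type libraries. All scrambled values were the lowest and all Cdk5i values the highest. Depth was low, with 55, 59 and 60 counts in Cdk5i libraries, 12, 12 and 28 in scrambled libraries and 43, 45 and 49 in wild-type libraries. The log2 fold change was -1.59 ± 0.29 for scrambled over wild type (edgeR adjusted p = 0.0925) and 1.72 ± 0.28 for Cdk5i over scrambled (edgeR adjusted p = 0.114). Without scrambled library 3 both passed (edgeR adjusted p = 0.00986 and 0.00380), within ranges of 4.72e-05 to 0.450 and 3.34e-06 to 0.550 over 16 settings. Library 3 was the scrambled library nearest to the wild type here, so leaving it out widens the difference. Each comparison passed under 3 of 16 settings, and the lowest values came with no filter on low counts.

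Lamb1, the beta 1 chain of laminin, measured 29.1, 27.2 and 32.7 CPM in Cdk5i libraries, 20.2, 21.1 and 22.3 CPM in scrambled libraries and 26.8, 26.1 and 25.4 CPM in wild-type libraries. Cdk5i libraries were highest and scrambled libraries lowest, with no overlap. On the log2 scale Lamb1 differed by -0.30 ± 0.08 for scrambled over wild type and 0.49 ± 0.08 for Cdk5i over scrambled, and neither passed by edgeR (adjusted p = 0.285 and 0.114). DESeq2 called Lamb1 in Cdk5i over scrambled (adjusted p = 0.00181, within 1.17e-04 to 0.550 over 16 settings, the lowest by edgeR with no filter on low counts). Of 10 other laminin chain genes, 9 could be tested and none passed in any comparison by edgeR or DESeq2. At an unadjusted p under 0.05 there were 1, 1 and 2 in scrambled over wild type, Cdk5i over scrambled and Cdk5i over wild type. Over all tested genes the shares were 10.1%, 5.33% and 11%, in the same order. With 9 genes, the absence of calls does not show unchanged laminin chains.

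Sypl, which encodes a synaptophysin-like protein of vesicles, followed another order. It measured 27.3, 24.2 and 26.6 CPM in Cdk5i libraries, 27.4, 27.5 and 28.2 CPM in scrambled libraries and 36.8, 31.8 and 33.1 CPM in wild-type libraries. Both P301S groups were below the wild type, Cdk5i by -0.38 ± 0.08 and scrambled by -0.29 ± 0.08 on the log2 scale (edgeR adjusted p = 0.121 and 0.273). Ccdc71l averaged 2.75 ± 0.0431 CPM in Cdk5i libraries, 3.17 ± 0.620 CPM in scrambled libraries and 3.91 ± 0.355 CPM in wild-type libraries, and the orphan receptor gene Gpr22 averaged 16.8 ± 2.53, 16.8 ± 0.867 and 22.5 ± 5.77 CPM in the same groups (SD, n = 3 each). For both genes the Cdk5i mean was below the wild-type mean, though for Gpr22 those groups overlapped.

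Of the other members of the fifth window, Hbp1, an HMG-box repressor, measured 20.8, 18.4 and 19.4 CPM in Cdk5i libraries, 22.6, 22.5 and 21.7 CPM in scrambled libraries and 20.3, 20.5 and 21.4 CPM in wild-type libraries, and the scrambled values were above both other groups without overlap. Nampt, which makes the precursor of NAD, averaged 30.0 ± 1.90 CPM in Cdk5i libraries, 27.6 ± 2.79 CPM in scrambled libraries and 31.1 ± 0.691 CPM in wild-type libraries, and the scrambled libraries were below wild type without overlap. Dld (a dehydrogenase subunit of mitochondria), Cbll1 (a ubiquitin ligase), Slc26a4 (an anion exchanger, with log2 fold changes of -0.36 ± 0.23 for scrambled over wild type and -0.35 ± 0.23 for Cdk5i over wild type), Bcap29 (a membrane protein of the endoplasmic reticulum) and Prkar2b (a regulatory subunit of protein kinase A) overlapped in all comparisons, as did the RNA 4933406C10Rik. Cog5 holds Gpr22 on its opposite strand and overlaps Hbp1, also on the opposite strand, so these 3 genes share span.

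By role, counted from lists drawn up with earlier results of these data known, differences without overlap between scrambled and wild-type libraries were spread over all classes. They were lower at 4 of 5 members for matrix, adhesion and cytoskeleton (median log2 fold change -0.43), at 4 of 6 for membrane traffic (-0.16), at 4 of 10 for metabolism, transport and nucleic acid enzymes (-0.25), at 3 of 8 for signalling (-0.08) and at 2 of 8 for transcription (-0.06). Over all tested genes the median was 0.01, and 8.03% were lower and 8.26% higher without overlap. At 1 member, the transcription gene Hbp1, the scrambled libraries were higher. For Cdk5i over scrambled, Dcdc2c, Pxdn, Lamb1 and Cdhr3 of the matrix class were higher without overlap, and Sntg2 overlapped, while 4.95% of all tested genes were higher.

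Genes elsewhere that encode partners of members showed no call, but calls were rare. Over all 16046 tested genes, edgeR called 13, 2 and 12 in scrambled over wild type, Cdk5i over scrambled and Cdk5i over wild type. The absence of calls in short lists thus shows little about partners. Of 5 tested genes of the EARP and GARP tethers, 7 of the COG complex, 11 of the TRAPP complex, 6 of the pyruvate and oxoglutarate dehydrogenases and 5 of protein kinase A, none passed by edgeR or DESeq2 in any of the 3 comparisons. At an unadjusted p under 0.05 each list had 0 or 1 gene in every comparison. All tested genes gave 10.1%, 5.33% and 11% in the order above. Without overlap, 3 of 7 COG genes were higher and 1 lower for Cdk5i over scrambled (4.95% and 5.38% of all tested genes). Of 5 protein kinase A genes, 2 were higher for scrambled over wild type and 2 for Cdk5i over wild type (8.26% and 8.03%). All other counts without overlap, by list and direction, were 0 or 1. The list medians for scrambled over wild type were -0.01, 0.01, -0.03, 0.08 and 0.10 on the log2 scale.

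The 3 scrambled libraries did not contribute alike. Members under 0.5 of the wild-type mean numbered 7 in scrambled library 1, 9 in library 2 and 2 in library 3, where the shares over all tested genes were 1.5%, 1.96% and 2.95%. In the Cdk5i libraries they numbered 0, 2 (Gm20472 and Allc) and 1 (Gm20472), with shares of 2.8%, 2.41% and 2.19%. Of the 23 members at which scrambled and wild-type groups did not overlap, scrambled library 3 was nearest to the wild-type mean at 20, library 1 at 2 and library 2 at 1. Over all 2613 such genes the shares were 39.3% for library 3, 35.4% for library 1 and 25.5% for library 2. Without scrambled library 3 the count of members past the threshold was 7 in Cdk5i over scrambled, against 1 with it, and it was 3 without Cdk5i library 1 and 2 without scrambled library 1. Over all tested genes the calls at these settings numbered 18, 2, 7 and 7, in the order given.

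Between Cdk5i and wild-type libraries no member passed by edgeR (0 of 52, where 0.0748% of all tested genes passed), 5 had an unadjusted p under 0.05 (11% of all tested genes did), and DESeq2 called 1, Sypl. The median log2 fold change was -0.04, against -0.01 over all tested genes, and the 95% interval held 0 at 47 of 52 members. The groups did not overlap at 4 members higher in Cdk5i (Eipr1, C630031E19Rik, Lamb1 and Cdhr3) and at 4 lower (Kidins220, Dus4l, Ccdc71l and Sypl), while over all tested genes 8.03% were higher and 8.22% lower without overlap. A difference that misses the threshold does not show equal levels. For 2410018L13Rik the 95% interval of Cdk5i over wild type ran from -0.63 to 0.50, and for Dcdc2c from -0.49 to 0.39.

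**Figure D4:**
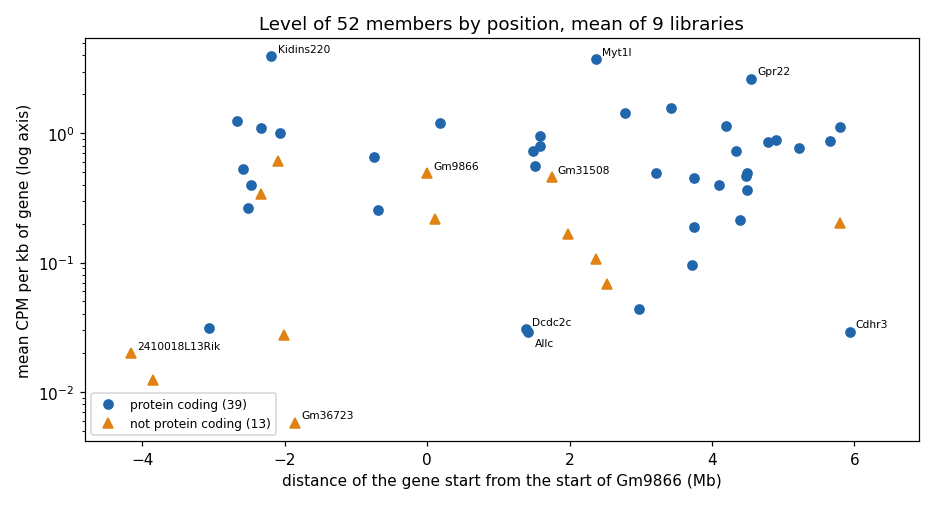
Mean CPM per kb of gene span on a log axis (vertical) by distance of the gene start from that of Gm9866 in Mb (horizontal), for the 52 members, as the mean of 9 libraries. Blue circles are the 39 protein-coding members and orange triangles the 13 others; levels run from 0.00579 for Gm36723 to 3.94 for Kidins220.

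Levels per length varied widely along the segment, and 2410018L13Rik, Dcdc2c, Allc and Cdhr3 were among the low ones. Mean CPM per kb of gene span, over all libraries, ran from 0.00579 for Gm36723 to 3.94 for Kidins220, with a median of 0.477 against 0.548 over all tested genes. The protein-coding members had a median of 0.658 and the others a median of 0.166 CPM per kb. The next highest were Myt1l with 3.72 and Gpr22 with 2.64 CPM per kb. Without the length correction, Myt1l had a mean of 1467 CPM, Kidins220 348 CPM and Mboat2 147 CPM. Of the 3 members that passed edgeR's test with every library, Gm9866 stood at 0.491, 2410018L13Rik at 0.0199 and Dcdc2c at 0.0303 CPM per kb.

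In the flanks of equal length, for scrambled over wild type the median log2 fold change was 0.02 over 38 tested genes before the segment and -0.07 over 23 after it, against -0.15 over the 52 members. Without overlap, 3 genes before the segment and 5 after it were lower in scrambled libraries and 0 were higher in either flank, while over all tested genes 8.03% were lower and 8.26% higher. For Cdk5i over scrambled, 1 gene was higher and 5 were lower without overlap before the segment, and 2 were higher and 0 lower after it, while over all tested genes 4.95% were higher and 5.38% lower. In the same comparison, 7 of the 38 genes before the segment had an absolute log2 fold change over 1, against 9 of 52 members and 0.86% of all tested genes. Genes named here were chosen after their values were seen. Gm48693 had 85, 175 and 157 counts in Cdk5i libraries, 43, 34 and 112 counts in scrambled libraries and 111, 123 and 130 counts in wild-type libraries, with scrambled library 3 nearest to the wild type. Gm40847 had 45, 1 and 0 counts in Cdk5i libraries, 104, 71 and 31 counts in scrambled libraries and 34, 27 and 35 counts in wild-type libraries, with Cdk5i library 1 apart from Cdk5i libraries 2 and 3, as at Gm20472. Of the others among the 7, Gm4804 (7, 6 and 40 scrambled counts) and Gm5432 (20, 14 and 33) also had scrambled library 3 nearest to the wild type. Gm49692 (163, 45 and 42 Cdk5i counts) and Gm4425 (23, 6 and 1) had Cdk5i library 1 apart. Gm10479 (12, 11 and 11 Cdk5i counts, 33, 31 and 23 scrambled counts) followed neither pattern. The difference between the segment and its flanks was not tested.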

How the data were processed

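The authors deposited 1 table of raw read-pair counts per gene for each of the 9 libraries, made with featureCounts 2.0.0 over whole gene spans, paired and by strand, on the Ensembl 102 annotation, per the file headers. Also named in the submitters' processing notes are STAR 2.7.9a, DESeq2 1.36.0 and the build GRCm38, without a role. Counting over spans includes introns. Per the labels' protocols, RNA came from sorted nuclei, and unspliced RNA is counted too.

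From these, 1 edgeR fit (version 4.0.16, under R 4.3.3) was made with 3 group means over all 9 libraries (TMM scaling, the default filter on low counts with a minimum of 10, robust quasi-likelihood test). It left 16046 genes, all 52 members among them, and p-values were adjusted over these by Benjamini-Hochberg at a threshold of 0.05. CPM are counts per 1000000 of the TMM-scaled total, an SE is the log2 fold change over the root of F, and the median SE was 0.137. Groups that do not overlap have every library of 1 group above every library of the other. The fit was tested on simulated data. Groups followed the labels, and no 2 libraries of a group agreed within sampling noise. DESeq2 1.42.0 and other settings were alternatives. Symbols came from a gene name table, biotypes from GENCODE M21 and promoters from RefSeq on GRCm38.p6. Named members were those in the role lists, those past the threshold, the 10 largest differences without overlap in each comparison, the 3 most abundant and those beside the count minimum. The members and lists were chosen with earlier results of these data known. Other members are named for completeness, and 1 member is not reported here by itself.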

Additional observations from a re-analysis of the deposited data

How the results depend on the processing

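For scrambled over wild type, where 3 members passed, the count was 6 with DESeq2, 12 with no low-count filter, and 1 each with a filter of 50 counts, a non-robust fit or the replicate number as a block, and it ran from 1 to 6 when single libraries were left out. Over all tested genes the calls were 13 in the first fit, 75, 318, 6, 6 and 2 under those settings in that order, and 2 to 17 with single libraries left out. For Cdk5i over scrambled, where 1 passed, it was 8 with DESeq2 and 10 with no low-count filter, and ran from 1 to 7 with single libraries left out, where all genes gave 2, 27, 159 and 2 to 18. For Cdk5i over wild type, where 0 passed, it was 1 with DESeq2 and 3 with no low-count filter, and stayed at 0 with any library left out, where all genes gave 12, 113, 408 and 2 to 14. With single libraries left out, the median log2 fold change over members ran from -0.19 to -0.11 for scrambled over wild type, from 0.054 to 0.15 for Cdk5i over scrambled and from -0.076 to -0.024 for Cdk5i over wild type. For Cdk5i over scrambled it was 0.053 over the 33 members with a count sum of at least 1000. The cause of these shifts was not tested. Gm9866 passed under 16 of 16 settings in scrambled over wild type (edgeR or DESeq2 adjusted p from 1.63e-19 to 0.0160) and under 16 of 16 in Cdk5i over scrambled, 2410018L13Rik under 8 of 15 and Dcdc2c under 5 of 16 in scrambled over wild type. No named member that passed under some setting changed its sign there. Replicate numbers did not pair the libraries: same-numbered libraries of different groups had residual correlations from -0.31 to 0.17, and the best correlate bore the same number in 4 of 18 cases. Depth limits the members with few counts, such as 2410018L13Rik, Gm47860 and Allc, where scrambled libraries hold fewer than 20 counts each. In scrambled libraries 1 and 2, Cdhr3 had 12 and 12 counts and 9030624G23Rik had 10 and 8.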
